A study of Mus musculus with 3 samples.

Results

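The fibrillar collagens described here are 5 genes, Col1a1, Col1a2, Col3a1, Col5a1 and Col5a2, chosen by name out of 50507 gene rows in the deposited count table. They encode the chains of collagens I, III and V. All 5 were listed, and 4 of the 5 passed the filter on low counts that left 3013 genes for testing. Col5a1 missed it and was tested in another fit to which it was added.

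The study asked which chromatin-associated genes matter early on, when embryonic fibroblasts of the mouse are driven towards pluripotency. Every library came from primary wild-type BL6 fibroblasts at passage 2, infected at an MOI of 1 with the tet-STEMCCA lentivirus, which carries Oct4, Sox2, Klf4 and c-Myc under a doxycycline-dependent promoter, and with a second virus for the transactivator rtTA. Day 0 was the addition of a reprogramming medium with 2 ug/mL doxycycline, 3 uM chiron, 50 ug/mL ascorbic acid, LIF and 0.25 uM Alk5i, an inhibitor of the TGF-beta receptor. In any comparison with Day00 the time, the 4 induced factors and this change of medium therefore cannot be told apart. In the screen the cells were transfected with 40 nM of pooled siRNAs against 1 of 33 genes, with a non-targeting siRNA (nt) or as a Mock control, and were harvested at day 6. The time course, Day00 to Day06, was of cells that were re-plated but not transfected. The animals' age and sex were not given in the sources used here. Each library is a bulk RNA sample of a mixed culture, so fewer fibroblasts and less collagen RNA per fibroblast cannot be told apart.

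Fibrillar collagens are the main structural proteins of connective tissue and are secreted in quantity by fibroblasts. Collagen I is built mostly from a pair of alpha1 chains (Col1a1) and a single alpha2 chain (Col1a2). Collagen III is made of alpha1 chains alone (Col3a1), and collagen V, which starts and limits the width of collagen I fibrils, is assembled from the products of Col5a1 and Col5a2. High collagen I expression is a hallmark of mesenchymal cells, and fibroblasts lose mesenchymal traits as they are reprogrammed.

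The genes lie on 4 chromosomes of GRCm38, by GENCODE vM21. Col1a1 spans chr11:94936224-94953042 on the plus strand, Col1a2 chr6:4504814-4541544 on the plus strand, and Col5a1 chr2:27886425-28039514 on the plus strand. Col3a1 (chr1:45311538-45349706, plus strand) and Col5a2 (chr1:45374321-45503282, minus strand) are neighbours whose 3′ ends face each other across 24614 bases. No gene had a near-identical copy of the last 500 bases of a member's longest coding transcript, the part a 3′ method reads. Exons of Col3a1 overlap Gm47302 on the same strand, and those of Col5a1 overlap 2810430I11Rik and Gm13372 on the opposite strand.

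RefSeq windows of the 250 bases before the start site were at hand for 3 of the 5 genes, and they are shown because the genes' levels moved together in part of what follows. Sequence is on GRCm38.p6, plus strand, 5′ to 3′. For Col1a2 only the longest stretch outside annotated exons is printed, chr6:4505370-4505492, and the other windows are chr1:45311288-45311537 and chr2:27886175-27886424. The Col1a2 window lies inside the GENCODE span given above, so the start site used for it is downstream of the GENCODE start. Capitals mark matches, on either strand, to the CCAAT box, to GGGCGG (the core of a GC box) or to TATAAA.
Col1a2: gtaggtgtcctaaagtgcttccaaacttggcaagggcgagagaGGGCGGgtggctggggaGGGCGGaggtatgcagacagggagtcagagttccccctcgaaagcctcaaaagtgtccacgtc
Col3a1: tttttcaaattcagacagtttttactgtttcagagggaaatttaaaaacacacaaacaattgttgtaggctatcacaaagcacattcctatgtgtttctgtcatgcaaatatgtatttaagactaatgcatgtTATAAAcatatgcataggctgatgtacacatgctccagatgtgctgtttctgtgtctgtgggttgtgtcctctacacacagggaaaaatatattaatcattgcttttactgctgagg
Col5a1: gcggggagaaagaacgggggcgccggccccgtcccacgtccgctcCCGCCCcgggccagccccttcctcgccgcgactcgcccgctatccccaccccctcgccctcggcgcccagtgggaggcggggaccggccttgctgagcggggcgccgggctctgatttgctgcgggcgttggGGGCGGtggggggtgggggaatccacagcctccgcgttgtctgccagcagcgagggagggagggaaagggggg

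The 3 windows had little composition in common. The GC content of the whole window was 62.0% for Col1a2, 35.2% for Col3a1 and 76.4% for Col5a1, against a median of 52.4% over 32851 windows of the same length. GGGCGG occurred at -205 and -188 of Col1a2 and at -205 and -73 of Col5a1 and is found in 32.7% of all windows. TATAAA occurred at -117 of Col3a1 (12.4% of all windows) and CCAAT at -109 of Col1a2 (33.8%), beyond the stretch printed. Neither TGANTCA (6.75% of all windows) nor CACCTG (17.2%) was in any of the 3. A match is a run of letters and not a site shown to be used.

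The analysis used 127 libraries. The time course gave 21, Mock 5, nt 3 and the siRNAs 98, with 3 libraries in every other condition except siMtf1, which had 2. A library held 29656 to 235292 UMI counts (median 73279). The members together held between 0.0328% (siPou5f1) and 0.414% (Day00) of the counts as means of a condition. Col1a1 had a median of 16 counts in a library, Col1a2 had 26, Col3a1 had 7, Col5a2 had 3 and Col5a1 had 1, so the collagen V genes rest on few molecules. Of the 127 libraries, 51 had no count of Col5a1, and 16 had none of Col5a2. Day00 libraries held counts of 10 of 10 fibroblast markers at a sum of 3770 to 4427 counts per 1e+06, and 0 counts of the 5 endothelial markers. The 7 macrophage markers summed to 115 to 221 on Day00, with Ptprc, Csf1r, C1qa and C1qb at 0, 51.6 to 76.3 on Day01 and 27.6 to 90.5 on Day06. The 1 tested, Lyz2, was called lower than Day00 on both days (log2 fold changes -2.60 and -1.87, adjusted p = 0.0164 and 0.0349). Of the 33 siRNA targets, 9 passed the filter, and edgeR called 0 of them lower than in nt, with 0 lower at an unadjusted p under 0.05. DESeq2 also called 0 of 9, limma 0 of 28 and edgeR with no filter 0 of 33, so the counts do not show the knockdowns at this depth.

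Over the first day of the time course, which is also the first day in the medium with Alk5i, 4 of the 5 members fell. The level of Col1a2, in CPM (counts per 1e+06 counts of tested genes, after scaling), was 2135, 2583 and 2350 in the 3 Day00 libraries and 642, 696 and 569 in those of Day01, and the groups were far apart, as were those of 13.9% of all tested genes in the same direction. In edgeR's quasi-likelihood test its log2 fold change was -1.88 ± 0.20 (SE, n = 3 and 3, adjusted p = 7.8e-15). Col1a1 stood at 821, 1927 and 1233 CPM on Day00, a wide spread, and at 573, 709 and 774 CPM on Day01. The groups did not overlap, and the log2 fold change was -0.90 ± 0.22 (adjusted p = 0.00112).

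Col5a2 and Col3a1 fell too, from lower levels. Col5a2 had 226, 508 and 339 CPM on Day00 and 115, 61.1 and 56.9 CPM on Day01 (log2 fold change -2.28 ± 0.50, adjusted p = 3.0e-04). For Col3a1 the levels were 82.1, 127 and 298 CPM on Day00 and 22.9, 36.7 and 45.6 CPM on Day01, when its 3 libraries held 1, 3 and 4 counts (log2 fold change -2.32 ± 0.52, adjusted p = 4.4e-04). Both sets of Day00 libraries lay wholly above those of Day01. Col5a1, at 41.05, 63.5 and 66.2 CPM and then 45.9, 36.7 and 11.4 CPM, overlapped and did not pass the test (log2 fold change -0.99 ± 0.81, adjusted p = 0.521). Thus 4 of the 4 members that passed the filter were called lower, where 6.8% of all tested genes were. Without replicate 2 the calls of Col1a1 (adjusted p = 0.229) and Col5a2 (0.0582) were lost, and without replicate 3 that of Col3a1 (0.277), while that of Col1a2 stood in every alternative tried. With limma the calls of Col1a1 (adjusted p = 0.621), Col3a1 (0.0624) and Col5a2 (0.154) were lost as well.

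Col3a1 rose again, to 98.0, 167 and 219 CPM on Day02, above every Day01 library, as were 10.8% of tested genes, with a log2 fold change of 2.08 ± 0.53 (adjusted p = 0.00533). It was the only member called between those days, when 3.42% of tested genes were called higher, and the call was lost without replicate 2 (adjusted p = 0.0540) or 3 (0.176). On Day03 Col3a1 stood at 105, 199 and 220 CPM, and its mean of 175 CPM was close to the 169 CPM of Day00. Between Day02 and Day03 and between Day03 and Day04 no member was called.

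Col1a1 and Col1a2 had no call from Day01 to Day04 and then fell by a second step. Col1a1 had 662, 587 and 835 CPM on Day04 and 343, 279 and 451 CPM on Day05 (log2 fold change -0.92 ± 0.23, adjusted p = 0.00468). Col1a2 had 863, 688 and 776 CPM and then 546, 305 and 412 CPM (-0.88 ± 0.22, adjusted p = 0.00456). In both genes the groups were apart, as were those of 9.36% of tested genes in this direction, and 1.36% were called lower over that day. On Day06 Col1a2 was at 875, 687 and 682 CPM, higher than on Day05 by 0.81 ± 0.23 on the log2 scale (adjusted p = 0.0103, with 3.32% of tested genes called higher), whereas Col1a1, at 490, 524 and 361 CPM, was not called. Every one of these 3 late calls was lost without replicate 2, without replicate 3 and with limma.

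**Figure D1:**
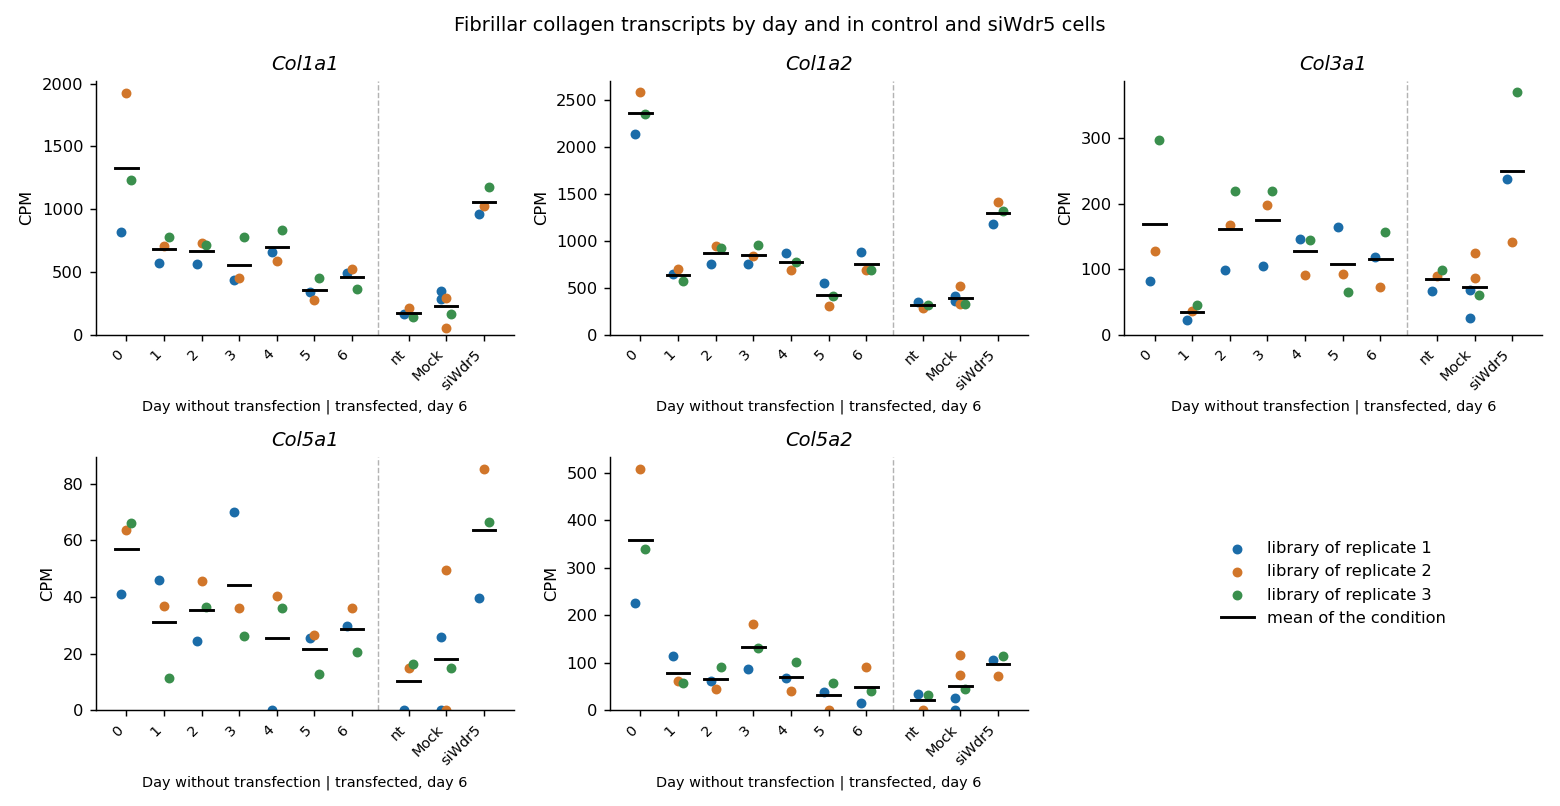
Level of each member in CPM (vertical axis, 1 panel a gene) in every library of the time course by day and in the nt, Mock and siWdr5 libraries; points are libraries, bars are means and the dashed line parts untransfected from transfected cells. Col1a2 falls from a Day00 mean of 2356 to 636 on Day01, Col3a1 dips to 35.0 on Day01 and returns, and the siWdr5 libraries of Col1a1 and Col1a2 lie above all nt and Mock libraries.

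Over the whole course, Day06 against Day00, which differ in medium too, 3 of the 4 members that passed the filter were called lower and 0 higher, beside 11.5% of tested genes called lower. Col5a2 changed most, from a mean of 358 to 48.7 CPM (log2 fold change -2.95 ± 0.52, adjusted p = 1.2e-06), with Day06 values of 14.8, 90.4 and 40.9 CPM that all lay below Day00, as those of 16.4% of tested genes did. Col1a2 was 3.19-fold lower and Col1a1 2.995-fold lower (log2 fold changes -1.67 ± 0.19 and -1.58 ± 0.23, adjusted p = 1.3e-13 and 1.4e-09). These 3 calls held in every alternative tried. Col3a1, at 119, 72.3 and 157 CPM on Day06, overlapped Day00, and its log2 difference of -0.65 had a 95% interval from -1.42 to 0.12 (adjusted p = 0.244). The difference for Col5a1 was -1.11 ± 0.78 (adjusted p = 0.336).

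The transfected controls lay lower still for collagen I. In nt libraries Col1a1 was at 167, 209 and 139 CPM and Col1a2 at 350, 284 and 310 CPM, below every Day06 library of either gene, as were 16.3% of tested genes. Against Day06 the log2 fold changes were -1.39 ± 0.31 for Col1a1 (adjusted p = 1.8e-04) and -1.24 ± 0.25 for Col1a2 (adjusted p = 3.2e-05), and 11.0% of tested genes were called lower. Col3a1 at 66.6, 89.7 and 98.0 CPM, Col5a1 at 0, 15.0 and 16.3 CPM and Col5a2 at 33.3, 0 and 32.7 CPM were not called. The nt cells had been transfected and the Day06 cells had not. Per the study's methods, transfected cells spent an additional day with the siRNA mix before reprogramming was started. The labels do not say how else the handling of nt and Day06 cells differed. In the 5 Mock libraries Col1a1 ran from 49.65 through a median of 284 to 343 CPM and Col1a2 from 323 through 361 to 519 CPM. No member differed between Mock and nt by edgeR, with 0 of 5 at an unadjusted p under 0.05 and 1.56% of tested genes called in either direction. DESeq2 and limma gave 0 calls too.

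Among the 33 siRNAs, higher collagen was far more often called than lower. All 33 comparisons share the same 3 nt libraries, so they are not independent. Of 132 pairs of an siRNA and a member that passed the filter, 15 (11.4%) were called higher and 1 (0.758%) lower, where 1.29% and 1.28% of all genes tested over the same comparisons were. With Col5a1 included, siWdr5 had all 5 members called, 4 other siRNAs had 2, 4 had 1 and 24 had none.

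The calls were concentrated in collagen I. Col1a1 was called higher with 8 of 33 siRNAs and lower with 0, and Col1a2 higher with 5 and lower with 1. For Col3a1, Col5a1 and Col5a2 the only call was with siWdr5. Mean levels exceeded the nt mean with 27 siRNAs for Col1a1, 24 for Col1a2, 25 for Col3a1, 19 for Col5a1 and 26 for Col5a2. They exceeded the Mock mean with 18, 18, 27, 10 and 4 siRNAs, in the same order of genes, so that for Col5a2 most siRNAs lay above nt and below Mock. All libraries of an siRNA lay above all nt libraries in 14, 11, 11, 4 and 5 siRNAs, in that order of genes, where 6.78% of all pairs of a gene and an siRNA did. Ordered by mean over all 42 conditions, nt ranked 36 from the top for Col1a1, 33 for Col1a2, 32 for Col3a1, 28 for Col5a1 and 35 for Col5a2, and Mock 26, 26, 35, 18 and 10. Neighbours in that order nearly always overlapped: the libraries of a condition were all above those of the next 1 time for Col1a1, 2 times for Col1a2, 1 time for Col5a2 and never for the others.

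**Figure D2:**
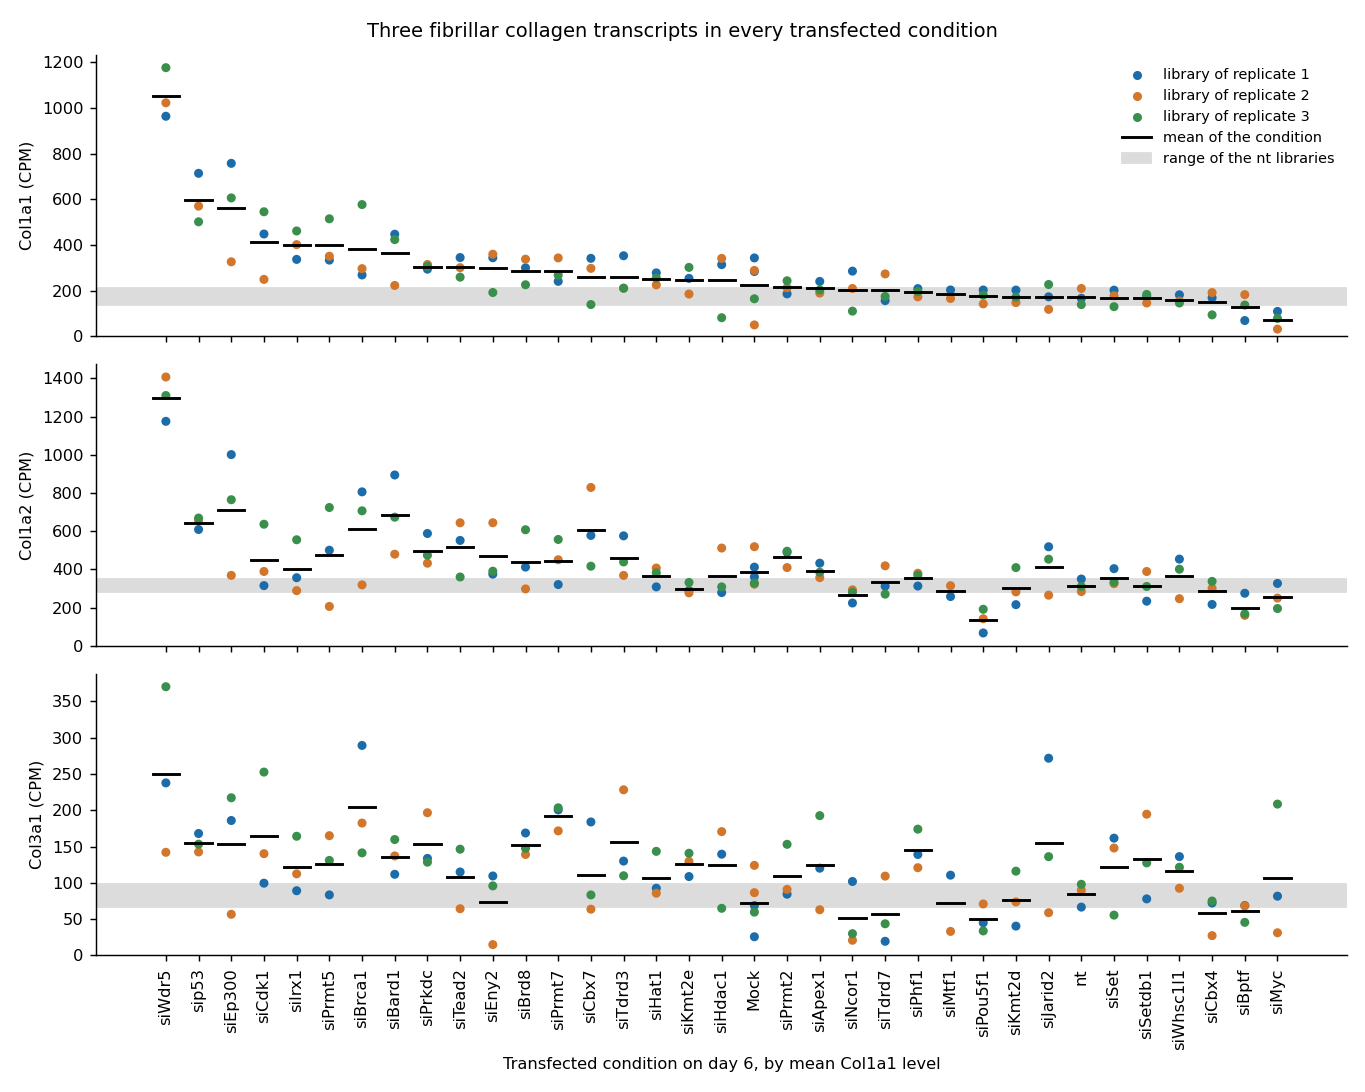
Level in CPM (vertical axis) of Col1a1, Col1a2 and Col3a1 in the libraries of 35 transfected conditions, ordered along the horizontal axis by mean Col1a1; points are libraries and the grey band is the range of the 3 nt libraries. The siWdr5 libraries, between 964 and 1177 for Col1a1, stand above all others, and for Col3a1 most conditions reach into or near the band.

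The siRNA against Wdr5, a WD-repeat scaffold of histone H3K4 methyltransferase complexes, gave the highest mean level of the transfected conditions for all 5 genes, although for Col3a1, Col5a1 and Col5a2 its libraries overlapped those of other transfected conditions. The guide strands of 2 of its siRNAs are shown, with those of the siRNAs against Bard1 and Brca1, which the study groups with it by colony shape and transcriptome. BARD1 and BRCA1 form a ubiquitin ligase that acts in DNA repair. Capitals mark the seed, bases 2 to 8, and U and T are printed as the library gives them.
Wdr5 guide 1: cAUAGUUUggcuuaacuggtg
Wdr5 guide 2: cACGGUUGaaaugaacggctg
Bard1 guide 1: uUGUCGGUuuaucuugaggtc
Bard1 guide 2: aGAAGAUGugcucacaucctc
Brca1 guide 1: aAGGACAUugugaaggccctt
Brca1 guide 2: aCUAAACCuugugcuuccctg

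Each of the 6 guides had an exact site in 1 gene, its target, and all sites were in coding sequence. No seed was shared among them. On GRCm38 the first Wdr5 site is chr2:27519355-27519373 in exon 3 and the second joins exons 7 and 8 within chr2:27520909-27525121. The Bard1 sites are in exons 3 and 2 (chr1:71088167-71088185 and chr1:71089475-71089493, minus strand) and the Brca1 sites in exons 4 and 5 (chr11:101535553-101535571 and chr11:101534000-101534018, minus strand). Wdr5 itself had 2, 3 and 2 counts in the siWdr5 libraries, 7 in all, against 7.69 expected from its share of the counts with other transfections in each replicate, so that its knockdown could not be seen in these libraries.

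Col1a1 was at 964, 1023 and 1177 CPM with siWdr5 and Col1a2 at 1175, 1407 and 1310 CPM. Every value was above all nt and all Mock libraries. Against nt the log2 fold change was 2.67 ± 0.27 for Col1a1 (6.35-fold, adjusted p = 3.5e-17) and 2.05 ± 0.23 for Col1a2 (4.14-fold, adjusted p = 2.6e-14). Both calls held in all 11 alternatives, with log2 fold changes from 2.33 to 2.85 and from 1.87 to 2.24.

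The chains of collagens III and V were also higher, on fewer counts. Col3a1 was at 238, 142 and 370 CPM, above nt throughout but widely spread (log2 fold change 1.56 ± 0.39, adjusted p = 0.00102). Its call was lost without replicate 3 (adjusted p = 0.0973) and with limma (0.193). Col5a2 was at 106, 71.1 and 114 CPM, from 25 counts against 6 in nt (log2 fold change 1.99 ± 0.69, adjusted p = 0.0205), and its call was lost without any 1 of the replicates (adjusted p = 0.0553, 0.124 and 0.103). Col5a1 was at 39.6, 85.3 and 66.5 CPM, from 16 counts against 3, a ratio of 5.55 with a 95% counting interval from 1.59 to 29.7 (log2 fold change 2.27 ± 0.88, adjusted p = 0.0413 in the fit that added it). The calls of Col5a2 and Col5a1 were also lost with limma (adjusted p = 0.231 and 0.184) and with no low-count filter (0.152 and 0.241). In each gene all siWdr5 libraries lay above all nt libraries, as they did for 17.1% of tested genes. Mock libraries, which reached 124 CPM for Col3a1, 49.65 for Col5a1 and 115 for Col5a2, overlapped those of siWdr5 in both collagen V genes. Thus 4 of 4 members that passed the filter were called higher, beside 12.2% of tested genes called higher and 15.1% called lower.

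With 4 other siRNAs both chains of collagen I were called higher and no other member was called. Whether the members differed in this was not tested, and Col3a1 had a log2 difference of 1.15 with siBrca1 (95% interval 0.27 to 2.03, adjusted p = 0.129) and of 0.92 with siEp300 (0.12 to 1.73, adjusted p = 0.159). Of the 11 higher calls with siRNAs other than siWdr5, only that of Col1a1 with sip53 was kept with limma (adjusted p = 0.00153, against 0.0710 to 0.863 for the rest), and 5 were kept with no low-count filter. All libraries lay above nt for 9.36% of tested genes with siEp300, 6.07% with sip53, 8.23% with siBrca1 and 12.2% with siBard1. The libraries labelled siEp300, for the histone acetyltransferase p300, had Col1a1 at 758, 326 and 606 CPM and Col1a2 at 1001, 369 and 765 CPM, all above nt (log2 fold changes 1.77 ± 0.28 and 1.19 ± 0.24, adjusted p = 6.1e-07 and 1.7e-04, where 3.02% of tested genes were called higher). Ep300 itself had 17 counts in them against 11.3 expected, which is not the direction of a knockdown. It did not pass the test against nt (unadjusted p = 0.0377, adjusted p = 0.212). Other targets had such an excess, for example Hdac1 with 18 counts against 9.83 expected in the siHdac1 libraries. Of the 33 targets 23 had fewer counts than expected. With sip53, against the tumour suppressor Trp53, Col1a1 was at 714, 570 and 502 CPM and Col1a2 at 609, 656 and 669 CPM, again all above nt (1.81 ± 0.31 and 1.04 ± 0.27, adjusted p = 1.8e-05 and 0.0153, with 0.863% of tested genes called higher). Replicate 2 was the lowest siEp300 library of both genes and for Col1a2 only just above nt. The Col1a2 call with sip53 was lost without replicate 2 and without replicate 3 (adjusted p = 0.152 for the latter). It was also lost with no replicate block, with no low-count filter and with limma.

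With siBrca1, Col1a1 was at 269, 296 and 577 CPM and Col1a2 at 806, 319 and 707 CPM (log2 fold changes 1.30 ± 0.33 and 1.00 ± 0.27, adjusted p = 0.00721 and 0.0118, with 2.49% of tested genes called higher). With siBard1, Col1a1 was at 447, 223 and 424 CPM and Col1a2 at 894, 480 and 673 CPM (1.18 ± 0.31 and 1.12 ± 0.25, adjusted p = 0.00535 and 5.9e-04, with 5.54% called higher). Each of these libraries exceeded every nt library, except that Col1a2 in replicate 2 of siBrca1 lay within the nt range. Without replicate 3 both siBrca1 calls (adjusted p = 0.677 and 0.291) and the Col1a1 call with siBard1 (0.318) were lost. These calls were also lost with no low-count filter and with limma. That of Col1a2 with siBrca1 was lost without replicate 1 and with no replicate block too.

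For 3 siRNAs Col1a1 alone was called. Col1a1 was at 448, 249 and 546 CPM with siCdk1, against the mitotic kinase CDK1 (log2 fold change 1.36 ± 0.31, adjusted p = 0.00235, 1.53% of tested genes called higher). It was at 337, 402 and 461 CPM with siIrx1, against a homeobox factor (1.27 ± 0.30, adjusted p = 0.00494, 0.431%). With siPrmt5, against an arginine methyltransferase, it was at 334, 351 and 515 CPM (1.34 ± 0.32, adjusted p = 0.00685, 0.398%). All 9 libraries were above nt, as were those of 8.5%, 7.67% and 5.94% of tested genes, and all 3 calls were lost without replicate 3 (adjusted p = 0.412, 0.318 and 0.681). The calls with siIrx1 and siPrmt5 were also lost with no replicate block and with no low-count filter.

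The single lower call was Col1a2 with siPou5f1, against Oct4, 1 of the reprogramming factors. Col1a2 was at 67.5, 142 and 192 CPM, below all nt libraries as 8.63% of tested genes were (log2 fold change -1.09 ± 0.36, adjusted p = 0.0466, with 2.19% of tested genes called lower). Col1a1, at 203, 142 and 180 CPM, was not called (log2 difference 0.09, 95% interval -0.69 to 0.86). Whether Col1a1 and Col1a2 differed with siPou5f1 was not tested. The Col1a2 call was lost without replicate 1 (adjusted p = 0.400), 2 (0.0899) or 3 (0.0832). In all it was lost in 9 of 11 alternatives, among them limma, no low-count filter and DESeq2's size factors. With siMyc, against c-Myc, Col1a1 had the lowest mean of all conditions, at 109, 31.3 and 78.2 CPM from 4, 1 and 6 counts, and was not called (log2 difference -1.12 ± 0.50, adjusted p = 0.455).

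**Figure D3:**
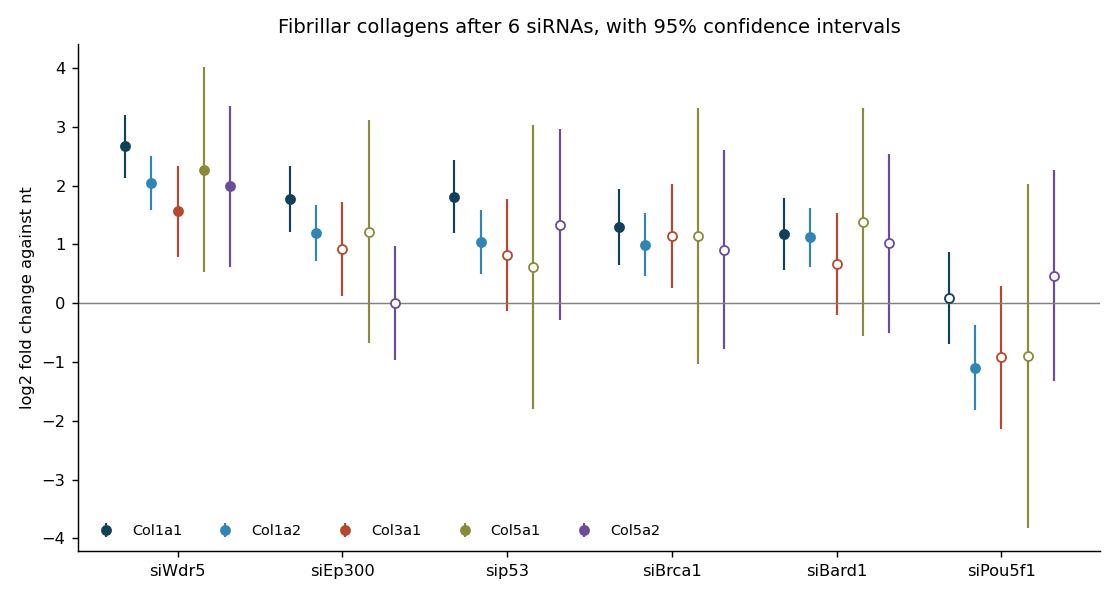
Log2 fold change against nt (vertical axis) of the 5 members for siWdr5, siEp300, sip53, siBrca1, siBard1 and siPou5f1; points are edgeR estimates, lines their 95% intervals, and filled points passed an adjusted p of 0.05. All 5 points of siWdr5 are filled, from 1.56 to 2.67, and with siPou5f1 only Col1a2, at -1.09, is.

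Collagen I was higher with siWdr5 than with the siRNAs grouped with it. Col1a1 exceeded its level with siBard1 by 1.49 ± 0.23 (adjusted p = 6.6e-08) and with siBrca1 by 1.37 ± 0.24 on the log2 scale (adjusted p = 5.7e-06). For Col1a2 the differences were 0.93 ± 0.20 (adjusted p = 3.0e-04) and 1.05 ± 0.22 (adjusted p = 1.2e-04). Over all tested genes 3.19% and 3.02% were called higher. All siWdr5 libraries lay above all libraries of the other 2 siRNAs in both genes, as they did for 10.4% of tested genes against siBard1 and 11.8% against siBrca1. Without replicate 2 both Col1a2 calls were lost (adjusted p = 0.0865 and 0.0812). With limma 0 of the 4 calls was kept (adjusted p = 0.279 and 0.676 for Col1a1, 0.634 and 0.667 for Col1a2). Col3a1 was not called against either (adjusted p = 0.103 and 0.555). Between siBard1 and siBrca1 no member was called, where 0.199% of tested genes were called higher and 0.664% lower. That difference was -0.12 for Col1a1, with a 95% interval from -0.68 to 0.43, and 0.12 for Col1a2, from -0.35 to 0.59.

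Set beside the time course, the mean levels of Col1a1 (1055 CPM) and Col1a2 (1298 CPM) with siWdr5 lay below Day00 and above every later day, while those of Col3a1 and Col5a1 lay above Day00 and that of Col5a2 below Day03. The siWdr5 cells were transfected and the time course cells were not. The siRNA and the transfection therefore cannot be told apart in any comparison with a day. Against Day00, Col1a2 was lower (log2 fold change -0.86 ± 0.18, adjusted p = 7.7e-05), as was Col5a2 (-1.84 ± 0.46, adjusted p = 0.00114), with 8.66% of tested genes called lower. The Day00 differences of Col1a1 (-0.31, adjusted p = 0.321), Col3a1 (0.41) and Col5a1 (0.12) were not called. Against Day06 Col1a1 was higher by 1.28 (adjusted p = 6.7e-06) and Col1a2 by 0.82 (adjusted p = 0.00292), where 3.45% of tested genes were called higher.

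The days between gave the same direction where they gave a call. Col1a2 was called higher than on Day01 (log2 difference 1.03), Day03 (0.60), Day04 (0.74) and Day05 (1.63), Col1a1 higher than on Day02 (0.67), Day03 (0.86) and Day05 (1.51), and Col3a1 higher than on Day01 (2.73) and Day05 (1.38). In all, 11 of 28 pairs of a day and a member that passed the filter were called higher and 2 lower. The share of tested genes called higher was 6.41% for Day01, 2.62% for Day02, 5.28% for Day03, 1.49% for Day04 and 4.95% for Day05. The 3 calls between 0.60 and 0.74 were lost in 6 or more of 9 alternatives each, and with limma 2 of the 11 higher calls were kept.

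Genes that fold, process, bind and degrade fibrillar collagens were followed through 6 lists. With siWdr5 against nt, 19 of the 32 listed genes that passed the filter were called higher and 0 lower, beside 12.2% and 15.1% of all tested genes. Of the 22 genes for collagen folding and modification, 5 passed the filter and 2 were called: Serpinh1, the collagen chaperone HSP47 (234 against 114 CPM, log2 fold change 1.01 ± 0.35), and Pdia3, a protein disulfide isomerase (0.78). Of 13 genes for processing and crosslinking, 4 passed and 3 were called: Lox, the lysyl oxidase that crosslinks fibrils (62.8 against 5.45 CPM, 2.66 ± 0.92), its relative Loxl1 (1.65), and Pcolce, an enhancer of procollagen C-propeptide cleavage (1.46). In Mock, however, Lox was at 52.7 CPM, near its level with siWdr5, so its fold change rests on an nt level near the floor. Loxl1 and Pcolce were at 33.8 and 85.9 CPM in Mock, against 181 and 151 CPM with siWdr5. The median log2 fold change was 0.78 for the first list and 1.56 for the second, beside 0.00 over all tested genes.

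Among 15 partners of collagen fibrils 11 passed and 7 were called, with a median log2 fold change of 1.27. Thbs1, the matrix glycoprotein thrombospondin 1, was at 1606 against 261 CPM (2.73 ± 0.24), Sparc, a collagen-binding glycoprotein, at 1698 against 413 CPM (2.06 ± 0.21) and Col12a1, a fibril-associated collagen, at 340 against 71.1 CPM (2.23 ± 0.39). All 4 of the tested genes for collagen degradation, of 9 listed, were called higher. They are a protease, Mmp2 (1.69), and 3 inhibitors of metalloproteases, Timp1 (1.42), Timp2 (1.90) and Timp3 (2.83). Of 18 regulators 6 passed and 3 were called, namely Tgfb2, a TGF-beta ligand (2.25 ± 0.50), and the mesenchymal transcription factors Prrx1 (1.62) and Twist2 (1.36). Neither of the 2 tested receptors of 8 listed, Ddr2 and Itgb1, was called. TMM scaling put the median over all genes 0.17 lower than DESeq2's size factors, which gave 22 higher and 0 lower.

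In the time course more of the list genes were called lower than higher. Day06 against Day00, 16 of 32 tested list genes were called lower and 3 higher, beside 11.5% and 10.7% of all tested genes, so the share called higher was near that of all genes. Lox fell from 1242 to 66.6 CPM (log2 fold change -4.45 ± 0.43), Serpinh1 by 1.41, Loxl1 by 1.45 and the lysyl hydroxylase gene Plod2 by 1.46. Among the fibril partners 6 fell, including Postn (-4.67), Fn1 (-2.89) and Bgn (-2.71), and 3 rose. Those were the small proteoglycans Lum (3.67 ± 0.86) and Dcn (3.18 ± 0.54), which bind collagen and limit fibril growth, and Col6a1, a chain of collagen VI (1.58). Timp3 (-2.49), Timp2 (-0.84), Itgb1 (-1.77), Twist2 (-1.87) and Prrx1 (-1.29) were called lower too. List medians were -0.77 for folding, -0.75 for processing, -1.29 for partners, -0.96 for receptors, -0.48 for degradation and -0.16 for regulators, beside 0.05 over all tested genes.

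**Figure D4:**
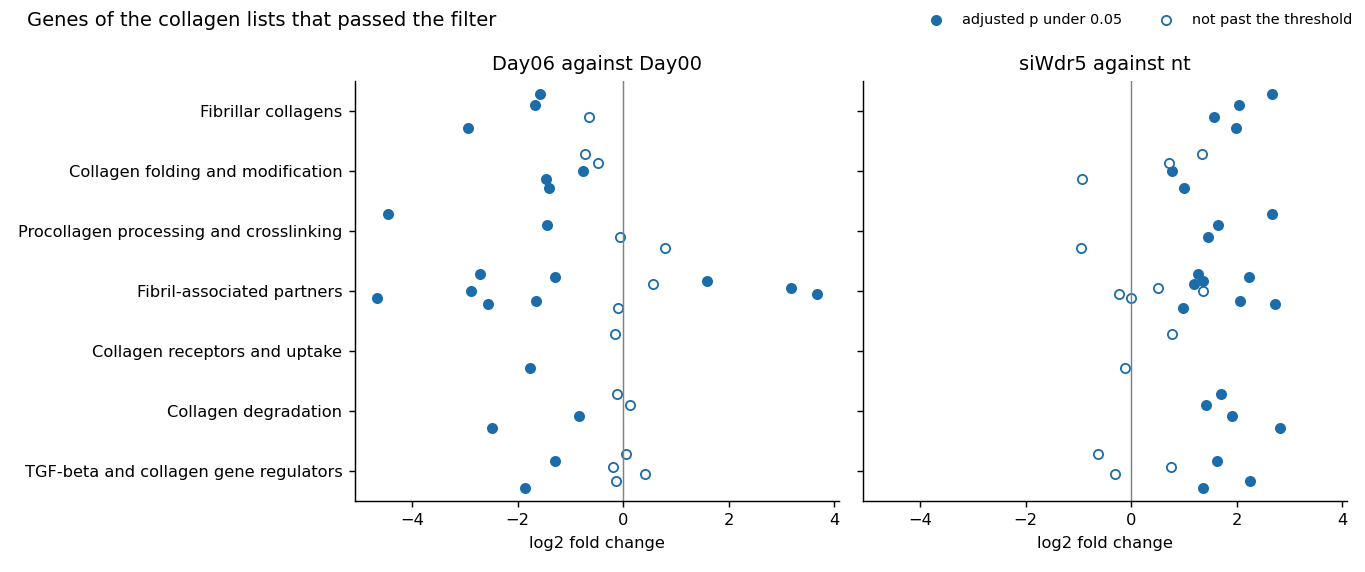
Log2 fold change (horizontal axis) of the list genes that passed the filter, grouped by list, for Day06 against Day00 and for siWdr5 against nt; filled points passed an adjusted p of 0.05. Filled points lie on the positive side throughout with siWdr5, whereas in the time course Lum, Dcn and Col6a1 are the 3 filled points on that side.

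Markers of fibroblasts and smooth muscle moved with the collagen levels in some comparisons and less in others. The summed level of 10 fibroblast markers per 1e+06 counts was 1607 to 2237 in nt, 3289 to 3811 with siWdr5, 2565 to 3002 with siBard1, 2364 to 2890 with siBrca1, 2211 to 2625 with siEp300 and 2329 to 3260 with sip53. In the time course it was 3770 to 4427 on Day00 and 1978 to 2774 on Day06, so that nt and Day06 overlapped. Of the 8 fibroblast markers tested, 5 were called higher and 0 lower with siWdr5 against nt, and 2 higher and 5 lower on Day06 against Day00. Against nt they had 3 higher and 0 lower with siBard1, 0 and 1 with siBrca1, 2 and 1 with siEp300 and 1 and 0 with sip53, and the lower call was Dcn both times. On Day01 against Day00 they had 0 higher and 2 lower, with a median log2 difference of -0.19, and in nt against Day06 1 higher and 1 lower. All 10 markers had a count in these groups, except that Pdgfrb was at 0 with sip53. The 6 smooth muscle markers summed to 62.4 to 66.6 per 1e+06 counts in nt, where Myh11 and Des were at 0, to 348 to 569 with siWdr5, 425 to 732 with siBard1, 273 to 602 with siBrca1, 437 to 896 with siEp300 and 67.9 to 234 with sip53, and from 4277 to 5542 on Day00 to 148 to 498 on Day06. Of the 4 tested, 3 were called higher with siWdr5, 4 with siBard1, 2 with siBrca1, 3 with siEp300 and 0 with sip53, and 0 lower with any of these. On Day01, at 2746 to 3477 per 1e+06 counts, 2 of the 4 were called lower than on Day00 (list median -0.79), on Day06 4 of 4 (-3.99), and in nt against Day06 1 of 4 (-1.60), Acta2, with 0 higher each time. The 8 epithelial markers, of which Cldn3 was at 0 in nt and also Krt19, Cldn4 and Esrp1 with siWdr5, went the other way, at 112 to 120 per 1e+06 counts in nt and 22.5 to 50.6 with siWdr5. None of the 8 passed the filter, so this difference was not tested. Of 8 pluripotency markers 1 passed, Fut9. It was called higher on Day06 than on Day00 (log2 fold change 3.06 ± 1.06, adjusted p = 0.0233). With siWdr5 against nt it was not called (-1.33 ± 0.72, adjusted p = 0.155). The part of the make-up of the cultures in the collagen levels was not tested.

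The genes whose pattern over 42 condition means was most like the mean of the members were Sparc (Pearson r = 0.907), Epb41l3 (0.884), Gnai2 (0.870), Vcan (0.860) and Fhl2 (0.856), out of 3009 genes compared. Sparc was among the nearest pair of genes for Col1a1 (0.870) and for Col1a2 (0.872). Col3a1 was most like Gas1 (0.681) and Plpp3 (0.667), Col5a1 like Myh9 (0.783) and Zeb1 (0.774), and Col5a2 like Fhl2 (0.850) and Igfbp5 (0.833). The conditions share sequenced pools and library depth, so these are descriptions.

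Between members, the chains of collagen I were closest, with r = 0.874 over 42 conditions, 0.897 over the 7 days and 0.808 over the 35 transfected conditions. For Col3a1 and Col1a1 the coefficient was 0.125 over the 7 days and 0.614 over the 35 transfected conditions, and this difference was not tested. Within conditions, over 127 libraries, the coefficients between members ran from -0.102 to 0.303. Counting error at this depth weakens such coefficients, so they do not show how much the members vary together within a condition.

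A ratio of members within a library does not depend on its scaling. Each UMI count is of 1 transcript end, so no length correction was made, although capture may differ between genes. The pooled ratio of Col1a1 to Col1a2 counts was 0.549 on Day00, 1.12 on Day01 and 0.584 on Day06, and it was 0.526 in nt, 0.557 in Mock and 0.825 with siWdr5. Neither a trend over the 21 time course libraries (Spearman's coefficient 0.04, permutation p = 0.869 adjusted; Pearson's r 0.03, adjusted permutation p = 0.903) nor the difference of siWdr5 from nt and Mock (log2 0.63, two-sided exact permutation p = 0.25, adjusted 0.375) was detectable. Spearman's coefficient was -0.39 over Day01 to Day06 and -0.09 over Day01 to Day05, and neither of these was tested. The ratio of Col3a1 to Col1a1, among the 3 examined, had the highest coefficients with the day. It was 0.164 on Day00, 0.0530 on Day01, 0.250 on Day02, 0.304 on Day03, 0.181 on Day04, 0.254 on Day05 and 0.304 on Day06, so that it did not rise from day to day throughout, with Spearman's coefficient 0.48 (permutation p = 0.0408, adjusted 0.0611) and Pearson's r 0.56 (permutation p = 0.012, adjusted 0.0359). Over Day01 to Day05 alone they were 0.47 and 0.62.

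The ratio of Col3a1 to Col1a1 was 0.537 in nt, 0.341 in Mock and 0.249 with siWdr5. The log2 difference of siWdr5 from nt and Mock was -0.94 (exact permutation p = 0.25, adjusted 0.375). For Col5a1 to Col5a2 Spearman's coefficient was 0.46 over the days (permutation p = 0.0313, adjusted 0.0611) and Pearson's r 0.42 (permutation p = 0.0568, adjusted 0.0852), and over Day01 to Day05 they were 0.05 and 0.16, so that this relation rested on the first and last days. With siWdr5 no difference of this ratio from nt and Mock was detectable (log2 0.22, exact permutation p = 0.896 over 48 arrangements), at 3 counts of Col5a1 and 6 of Col5a2 in nt.

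The other genes for fibrillar collagens were near or below detection. Summed over 127 libraries, Col27a1 had 108 counts, Col11a1 70, Col5a3 51, Col24a1 39 and Col11a2 3. Col2a1, the collagen of cartilage, had 0. None of these 6 passed the filter, so no test was made.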

How the data were processed

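Bulk CEL-Seq2 libraries, which count transcript 3′ ends by UMI, were sequenced as 3 pools, 1 per replicate. Per the study's methods reads were mapped by the authors to mm10 (Bowtie2), UMIs were counted with the CEL-Seq2 pipeline on GENCODE vM13, and poor libraries were dropped. Raw UMI counts per gene were deposited. The deposited log2 values were normalized by the authors with scran, and the batch was regressed out, so they are relative levels. The labels give the replicate only, and the condition was read from each column name. Mock columns that share a name were taken in their order. In the log2 table replicate 3 has only 1 of them, which was matched by its values (r = 0.925 against 0.0318). Of 129 libraries 127 were in both tables. The other 2 (6403 and 7981 counts) were used in 1 alternative.

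The main test was edgeR 4.0.16 (R 4.3.3), quasi-likelihood, with TMM scaling (factors 0.825 to 1.39), filterByExpr by condition, a term per condition and the replicate as a block, in 1 fit of 127 libraries (83 residual degrees of freedom, common dispersion 0.0158). "Called" means a Benjamini-Hochberg adjusted p under 0.05 over all tested genes of a comparison. In "a against b" the log2 fold change is a over b. CPM are per 1e+06 TMM-scaled counts of the tested genes, and summed marker levels are per 1e+06 of all counts. The study describes replicate transfections and independent sequencing replicates, but the sources used here do not say whether these were separate cell preparations, so p-values measure the spread between these libraries only. Deviations from the condition mean correlated with a median r of 0.0981 between libraries of the same replicate number and -0.0685 otherwise, which does not pair them, and the block stands for the sequenced pool. All 131 pairs of replicate libraries differed beyond sampling noise, so none was counted as 1. Intervals of counts cover counting error only. Ratios used a prior of 0.5 counts, 100000 permutations of days within replicates, or the exact permutation of labels within replicates (48 arrangements).

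Alternatives were DESeq2 1.42.0, limma 3.58.1 on the log2 values, DESeq2's size factors in edgeR, no filter, no block, other sets of libraries, and leaving out each replicate. Copies were sought with blastn 2.17.0 (90% identity over 250 bases). The scripts were tested on simulated data. Genes named are the 5 members, list genes that were called, and the genes of most like pattern. Members and lists were chosen with earlier results of these data known.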

Additional observations from a re-analysis of the deposited data

How the results depend on the processing

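Of the members' single calls, none changed direction under any alternative. The same side of the threshold was kept by 41 of 45 calls with DESeq2, 44 of 46 with DESeq2's size factors in edgeR, 45 of 46 with every library, 29 of 47 without the low-count filter, 34 of 46 without the replicate block, 16 of 16 with nt and Mock joined, 17 of 18 with only the compared groups in the fit, and 12 of 47 with limma on the relative log2 values. Leaving out replicate 1, 2 or 3 kept 41, 30 and 26 of 46. Replicate 3 was the deepest, with a median of 127079 counts a library against 64227 and 63122.

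The 15 higher calls with siRNAs against nt became 8 with no filter, 3 with limma and 6 to 13 with a replicate left out. The 1 lower call became 0 with DESeq2's size factors, no filter, limma, no replicate block, every library, only the compared groups and each replicate left out (0 to 0). Between consecutive days the 2 higher calls became 1 with DESeq2, 1 without the replicate block, 0 with limma or no filter and 0 to 2 with a replicate left out, and the 6 lower calls became 3 with no filter, 1 with limma and 2 to 6. The 4 higher calls of siWdr5 against siBard1 and siBrca1 became 0 with limma and 2 to 4. The 11 higher calls of siWdr5 against the days became 7 with DESeq2, 7 with no filter, 7 without the replicate block, 2 with limma and 6 to 9, and the 2 lower calls became 1 with limma and 1 to 2. The counts for Day06 against Day00, nt against Day06 and Mock against nt did not move. Without the replicate block the other counts stayed within 1.5 times.

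Of the ratios, the log2 difference of Col5a1 to Col5a2 with siWdr5 reversed to -0.0261 with a prior of 2 and ran from -0.13 to 0.58 with a replicate left out, and Spearman's coefficient of Col1a1 to Col1a2 over the days ran from -0.00886 to 0.0886. Over the days this coefficient ran from 0.452 to 0.490 for Col5a1 to Col5a2 and from 0.337 to 0.603 for Col3a1 to Col1a1, and the unadjusted p of the first, 0.0313 with all replicates, was 0.0801 to 0.0875. The cause was not tested for any of these. With DESeq2's size factors the median of all genes moved by 0.17 for siWdr5 against nt and by -0.16 for Day06 against Day00. Depth limits Col5a1 and Col5a2 most, with medians of 1 and 3 counts a library.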
